A study of Lotus japonicus with 24 samples.

Results

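The asparaginase genes of *Lotus japonicus* were taken as the rows of the deposited expression table whose description contains the word asparaginase, which gave 4 of 30243 genes. All 4 were expressed, and each carries the same protein domain in its description (PF01112, Asparaginase). RNAseq was carried out on shoots and roots of WT plants (ecotype Gifu) and of the *Ljasn1-2* mutant. *Ljasn1-2* is a single line, homozygous for a LORE1 retrotransposon in the eighth exon of *LjASN1*, which encodes an asparagine synthetase, and was genotyped to be free of the other insertions of its parent seeds. Under non-symbiotic (NS) conditions both genotypes were watered with 5 mM NH4NO3 and 3 mM KNO3, and under symbiotic (S) conditions both were inoculated with *Mesorhizobium loti* and watered without nitrogen, with 3 mM KCl. The 8 groups (genotype, tissue and condition) had 3 libraries each, from independent pools of 10 plants. According to the methods, NS plants were harvested at 26 days and S plants at 37 days, both following 8 h of light, while the series record has 40 days and 4 h throughout. If the methods hold, S and NS plants differed in age as well as in nitrogen source, and these cannot be told apart.

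Asparagine is the main nitrogen transport compound of this legume. Asparaginases release its stored nitrogen, since they hydrolyse asparagine to aspartate and ammonium, which then re-enters amino acid synthesis through glutamine synthetase and glutamate synthase. They are therefore the counterpart of the asparagine synthetases and are best known from tissues that receive asparagine, such as young leaves and developing seeds. Plant asparaginases belong to a family of enzymes that are made as a precursor and cut themselves into the active form. Some enzymes of this family can also act on isoaspartyl peptides, hence the names in the descriptions. Whether those encoded by the genes here do so was not tested. In Arabidopsis one of the isoforms depends on potassium and another does not.

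The 4 genes lie on 4 chromosomes of the assembly named LjG1.1 in the table. LotjaGi5g1v0031100 is on chromosome 5 (4982165 to 4985426, plus strand, gene length 2104 bases), and its best described match is isoaspartyl peptidase/L-asparaginase 2 of Arabidopsis, At3g16150, the potassium-dependent isoform of that plant. LotjaGi1g1v0358100 is on chromosome 1 (83239067 to 83240887, plus strand, 1405 bases) and has the same Arabidopsis match. The study names this gene *LjNSE3*. LotjaGi4g1v0257000 is on chromosome 4 (61198560 to 61201359, minus strand, 1778 bases) and is described by an asparaginase of white lupin (*Lupinus albus*). LotjaGi3g1v0099500 is on chromosome 3 (12368876 to 12372483, plus strand, 1516 bases) and is described by isoaspartyl peptidase/L-asparaginase 3 of Arabidopsis, At5g61540. None of the 4 overlaps another gene of the table. The genes next to LotjaGi5g1v0031100 and to *LjNSE3*, 4764 and 3504 bases away on the opposite strand, share a description too (LotjaGi5g1v0031200 and LotjaGi1g1v0358200, both described as the probable carbohydrate esterase At4g34215 of Arabidopsis). Both of these neighbours were lower in S than in NS roots, by -0.80 (limma adjusted p = 8.37e-05) and -1.03 (limma adjusted p = 3.25e-04) in log2 of FPKM + 1. This was not particular to them, since 3998 of 17283 genes tested were lower and 44.7% passed in either direction. Of the neighbours of the other asparaginase genes, LotjaGi3g1v0099600 (-0.79, limma adjusted p = 1.02e-05) and LotjaGi4g1v0256900 (-0.33, limma adjusted p = 0.0069) were lower too. LotjaGi4g1v0257100, LotjaGi3g1v0099400 and LotjaGi1g1v0358000 did not pass. The gene after LotjaGi3g1v0099500, a putative hexose carrier on the opposite strand, begins 60 bases away, and whether the reads were counted by strand is not given in the sources used here.

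Expression is given as FPKM (fragments for each kilobase of a gene's length, relative to library size), which allows levels of different genes to be compared per length. In the deposited table every value of 1 or more had lost its decimal point, which was restored from whole numbers of reads. This concerned 84 of the 96 values of the asparaginase genes. For these genes no other placement among those tried kept the order of the rows. Only placements that moved a few values of a gene and fitted the replicates nearly as well were tried. By the same check 88 genes of the table had another possible placement. Libraries held 37.5 M to 66.8 M reads on genes (median 42.5 M). The tissue labels were checked with 25 genes for chlorophyll-binding proteins and the small subunit of Rubisco, which summed to 40653 to 68048 FPKM in shoots and to 130 to 637 FPKM in roots, and with 4 leghemoglobin genes, which summed to 6592 to 15018 FPKM in nodulated (S) roots and never exceeded 1.03 FPKM in the other groups. *LjASN1* (LotjaGi1g1v0118200) averaged 4.77 to 78.9 FPKM in the 4 mutant groups and 87.2 to 637 FPKM in the 4 WT groups, and in each tissue and condition the mutant libraries lay below those of WT. The genotypes, conditions and tissues were compared with limma on log2(FPKM + 1) over all genes that reached 1 FPKM in 3 or more of the libraries involved, with two-sided tests and *p*-values adjusted by the Benjamini and Hochberg's approach. Because of the added 1, such differences come out too small for weakly expressed genes, and the folds given beside them are ratios of mean FPKM.

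**Figure D1:**
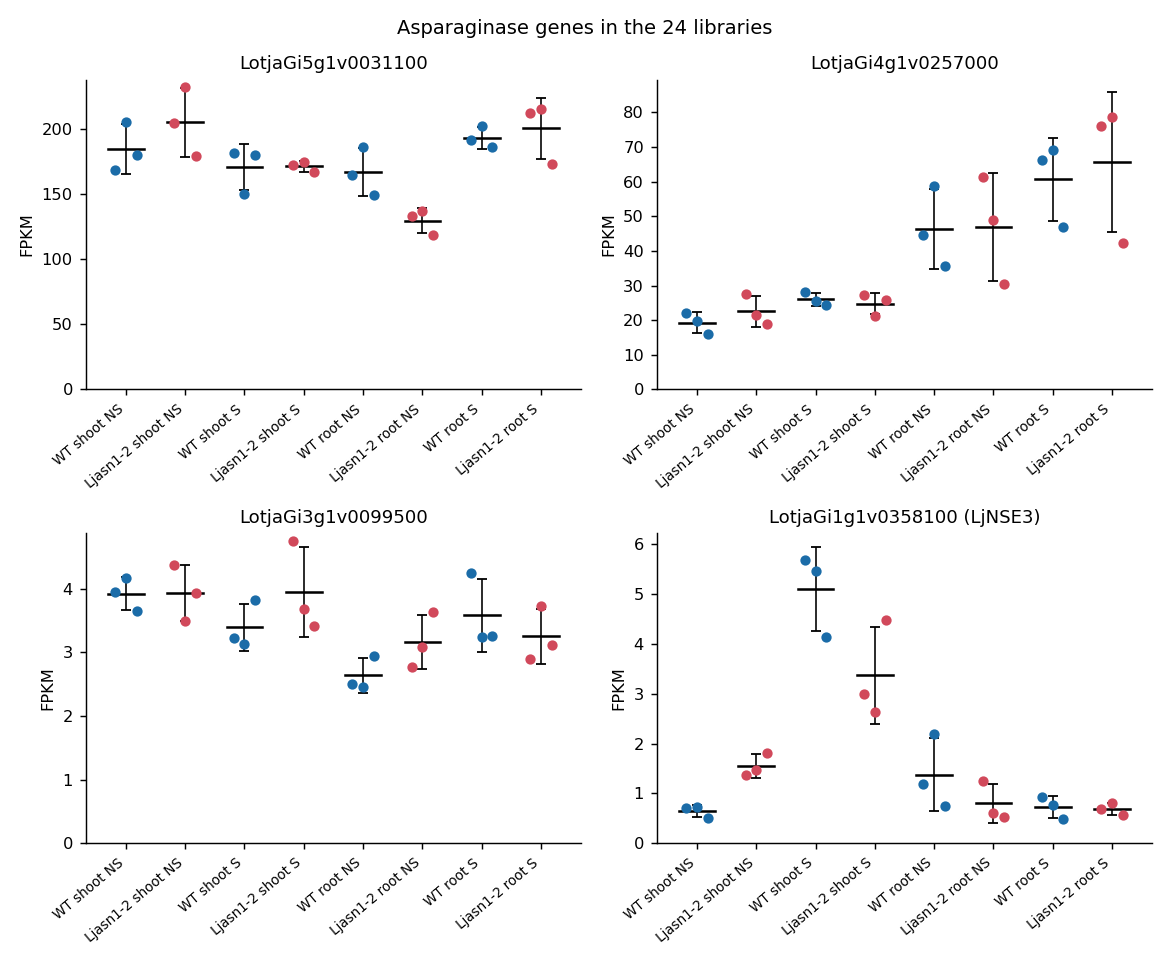
FPKM of each asparaginase gene (vertical axes, starting at 0 and different in each panel) in the 8 groups, with 1 point per library in the order of its replicate number (blue WT, red *Ljasn1-2*), a line at the mean and bars of 1 SD (n = 3). LotjaGi5g1v0031100 stayed between 119 and 232 FPKM in all libraries, LotjaGi4g1v0257000 was higher in all root than in all shoot libraries, and *LjNSE3* had its 6 highest libraries, from 2.63 FPKM upwards, in shoots S.

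LotjaGi5g1v0031100 was the most highly expressed asparaginase gene in each library. Its lowest library had 119 FPKM and its highest 232 FPKM, and its mean over all libraries stood at the 98.7th percentile of the table. The group means of LotjaGi5g1v0031100 differed by 1.58-fold from the highest (*Ljasn1-2* shoots NS, 205 ± 26.4 FPKM, SD, n = 3) to the lowest (*Ljasn1-2* roots NS, 129 ± 9.57 FPKM). It made up 72.2% to 88.5% of the summed FPKM of the 4 genes in the group means. LotjaGi4g1v0257000 came second, with 16.1 to 78.7 FPKM, at the 93rd percentile. LotjaGi3g1v0099500 was low and even, with 2.45 to 4.75 FPKM, and all of its libraries passed 1 FPKM. *LjNSE3* had the lowest mean but the widest span, 0.488 to 5.69 FPKM, and its group means differed by 7.92-fold. So the pair of genes with the same Arabidopsis match held both the highest and the lowest mean level of the family.

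**Figure D2:**
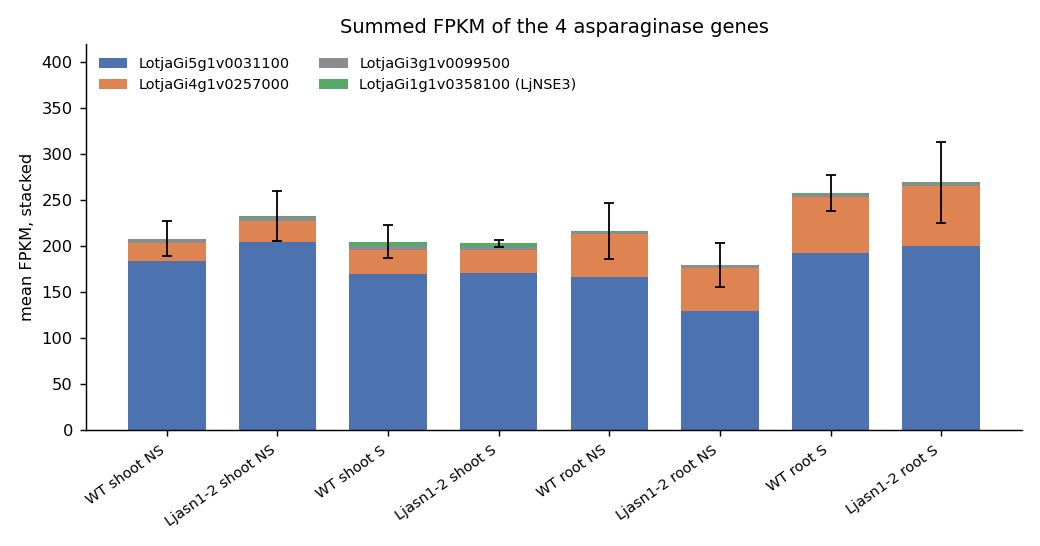
Mean FPKM of the 4 asparaginase genes stacked for each of the 8 groups, with bars of 1 SD of the sum over 3 libraries. LotjaGi5g1v0031100 forms most of each column, LotjaGi4g1v0257000 a larger part in roots than in shoots, and the sums run from 180 FPKM in *Ljasn1-2* roots NS to 270 FPKM in *Ljasn1-2* roots S.

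The summed level of the 4 genes varied less than most of its parts. In shoots it was 208 ± 18.8 FPKM (SD, n = 3) in WT NS, 233 ± 27.5 FPKM in *Ljasn1-2* NS, 205 ± 18.2 FPKM in WT S and 203 ± 3.47 FPKM in *Ljasn1-2* S. In roots it was 217 ± 30.5 FPKM in WT NS, 180 ± 23.9 FPKM in *Ljasn1-2* NS, 258 ± 19.6 FPKM in WT S and 270 ± 44.0 FPKM in *Ljasn1-2* S. The share of LotjaGi4g1v0257000 in this sum was 9.30% to 12.8% in the shoot groups and 21.1% to 25.5% in the root groups. *LjNSE3* held 0.254% to 2.51%.

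The order of the group means was compared with the spread of the libraries, as a description only. The order was taken from the same values, and overlap between groups was not counted over all genes, here or in the comparisons below. For LotjaGi5g1v0031100, 6 of the 7 neighbouring pairs in this order overlapped, and the exception was the last step, from WT roots NS to *Ljasn1-2* roots NS. For LotjaGi4g1v0257000 the 6 pairs within roots and within shoots overlapped, and the step from the lowest root group (WT NS, 46.3 ± 11.6 FPKM) to the highest shoot group (WT S, 26.04 ± 1.95 FPKM) did not. For *LjNSE3* the step from *Ljasn1-2* shoots S (3.37 ± 0.974 FPKM) to *Ljasn1-2* shoots NS (1.55 ± 0.236 FPKM) was the one without overlap. For LotjaGi3g1v0099500 all 7 neighbouring pairs overlapped.

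The first question was whether asparaginase genes responded to the growth condition. *LjNSE3* rose in shoots of S plants, and no other asparaginase gene passed the test in shoots (1 of 4, against 22.7% of all genes tested). In WT shoots the 3 libraries of *LjNSE3* had 0.702, 0.730 and 0.498 FPKM under NS conditions and 5.69, 5.47 and 4.14 FPKM under S conditions. In *Ljasn1-2* shoots they had 1.37, 1.47 and 1.82 FPKM under NS and 3.00, 2.63 and 4.47 FPKM under S conditions. All S libraries lay above all NS libraries in both genotypes, by 7.92-fold in the mean of WT and by 2.17-fold in the mean of *Ljasn1-2*. Averaged over the genotypes the difference in log2(FPKM + 1) was 1.32 (SE 0.19, 95% interval 0.92 to 1.72, limma adjusted p = 1.89e-04). It also passed in WT libraries alone (1.88, limma adjusted p = 4.74e-04) and in *Ljasn1-2* libraries alone (0.76, limma adjusted p = 0.0163). These levels rest on 28 to 339 reads per shoot library.

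The other 3 asparaginase genes in shoots differed by less. LotjaGi4g1v0257000 had 22.02, 19.7 and 16.1 FPKM in WT shoots NS and 28.2, 25.4 and 24.5 FPKM in WT shoots S, without overlap, while in *Ljasn1-2* shoots 27.6, 21.4 and 18.8 FPKM under NS and 27.2, 21.3 and 25.7 FPKM under S conditions overlapped. Its difference in log2(FPKM + 1) between S and NS shoots was 0.28 (95% interval 0.04 to 0.52, limma adjusted p = 0.0862), and it passed without replicate 1 of *Ljasn1-2* shoots NS (0.36, limma adjusted p = 0.0139) or without replicate 2 of *Ljasn1-2* shoots S (0.34, limma adjusted p = 0.0414). LotjaGi5g1v0031100 had 181, 150 and 180 FPKM in WT shoots S, overlapping with NS, and 172, 175 and 167 FPKM in *Ljasn1-2* shoots S, all below the lowest mutant NS library (179 FPKM). Over both genotypes it differed by -0.18 (limma adjusted p = 0.169) and LotjaGi3g1v0099500 by -0.08 (limma adjusted p = 0.543). The call of LotjaGi5g1v0031100 depends on the scaling of the libraries, since with scaling by library totals its difference was -0.32 and passed the test (limma adjusted p = 0.0145). That scaling moved the median of all genes by -0.12 in shoots and by -0.13 in roots for this contrast, and relative to the median of all genes LotjaGi5g1v0031100 was at -0.22 in the deposited scaling and at -0.24 with library totals. Of all genes called between S and NS shoots 57.6% were higher under S conditions in the deposited scaling and 28.8% with library totals. In roots these shares were 48.3% and 36.0%.

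In roots the gene that rose under S conditions was the most abundant one, LotjaGi5g1v0031100 (1 of 4 asparaginase genes, against 44.7% of all genes tested). It had 164, 186 and 149 FPKM in WT roots NS and 191, 202 and 186 FPKM in WT roots S. In *Ljasn1-2* roots it had 133, 137 and 119 FPKM under NS and 212, 215 and 173 FPKM under S conditions. These 3 mutant S libraries lay above the 3 mutant NS libraries (1.55-fold in the mean), whereas the WT libraries overlapped (1.16-fold). The difference in log2(FPKM + 1) over both genotypes was 0.42 (SE 0.12, 95% interval 0.16 to 0.68, limma adjusted p = 0.0119), and with scaling by library totals it was 0.27 (limma adjusted p = 0.0269). In *Ljasn1-2* libraries alone it was 0.62 (limma adjusted p = 0.0448) and in WT libraries alone 0.21 (limma adjusted p = 0.429). The test of whether the genotypes differed in this response did not pass (-0.41 for the genotype difference under NS minus that under S, SE 0.21, limma adjusted p = 1.00).

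Roots S were nodulated roots, as their leghemoglobin shows, and the part of nodule tissue in the difference of LotjaGi5g1v0031100 was not tested. In bulk tissue fewer cells that express a gene and less RNA of it per cell cannot be told apart. LotjaGi4g1v0257000 averaged 46.3 FPKM in roots NS and 60.7 FPKM in roots S of WT, and 46.9 and 65.7 FPKM in those of *Ljasn1-2*, with overlapping libraries and a difference in log2(FPKM + 1) of 0.44 (95% interval -0.02 to 0.89, limma adjusted p = 0.109). Without replicate 3 of *Ljasn1-2* roots S it passed (0.56, limma adjusted p = 0.0349). Within replicate numbers the S library was above the NS library in 3 of 3 pairs in each genotype. Since root libraries of the same number deviated together over all genes, a second fit took the replicate number as a block, and in it LotjaGi4g1v0257000 passed the test (limma adjusted p = 0.0011), as did 64.4% of all genes. LotjaGi3g1v0099500 had 3.24 to 4.24 FPKM in WT roots S, above all WT libraries of roots NS (2.45 to 2.95 FPKM), while the mutant libraries overlapped, and over both genotypes it did not pass (0.18, limma adjusted p = 0.172). Nor did *LjNSE3* pass in roots (-0.25, limma adjusted p = 0.217).

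**Figure D3:**
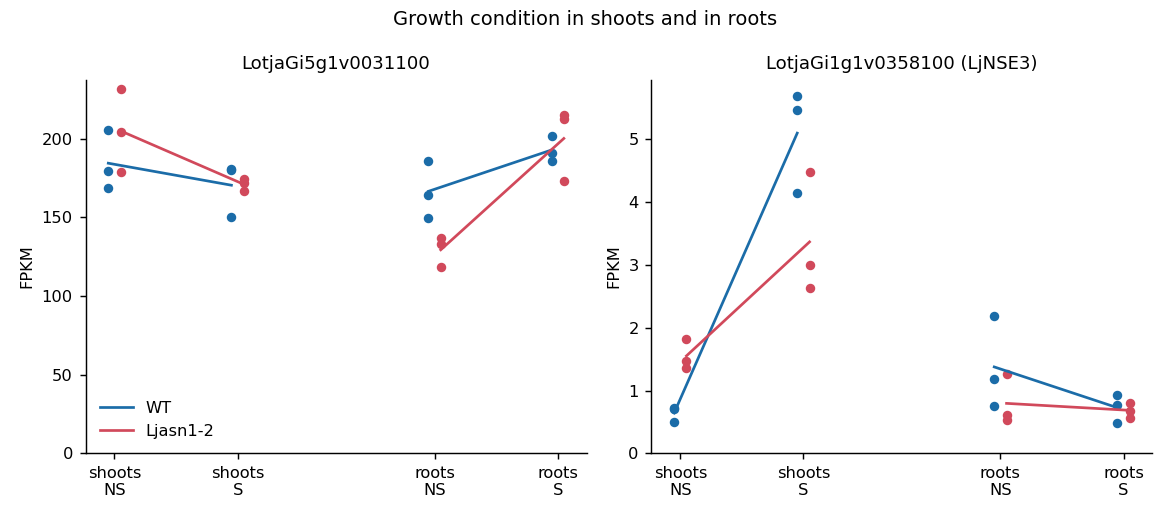
FPKM of LotjaGi5g1v0031100 (left) and *LjNSE3* (right) under NS and S conditions in shoots and roots, with 1 point per library and lines between the means of 3 libraries (blue WT, red *Ljasn1-2*). The lines of *LjNSE3* climb in shoots (0.644 to 5.10 FPKM in WT) and not in roots, and those of LotjaGi5g1v0031100 climb in roots (129 to 200 FPKM in *Ljasn1-2*) and not in shoots.

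The responses of shoots and roots were then compared directly, as the difference S minus NS in roots minus that in shoots. It passed the test for 2 of 4 asparaginase genes, against 37.6% of all genes tested, and the signs were opposite. For *LjNSE3* it was -1.57 on the log2(FPKM + 1) scale (SE 0.26, 95% interval -2.10 to -1.04, limma adjusted p = 3.30e-05), the increase under S conditions being that of shoots. On recovered reads, with voom weights, it was -2.39. For LotjaGi5g1v0031100 it was 0.60 (SE 0.14, 95% interval 0.30 to 0.90, limma adjusted p = 0.0020). LotjaGi3g1v0099500 (0.26, limma adjusted p = 0.121) and LotjaGi4g1v0257000 (0.16, limma adjusted p = 0.663) did not pass, although LotjaGi3g1v0099500 did without replicate 1 of *Ljasn1-2* shoots S (0.32, limma adjusted p = 0.0486). *LjNSE3* and LotjaGi5g1v0031100 passed with each library left out in turn and under each of the other settings tried.

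The second question was where the genes were expressed. LotjaGi4g1v0257000 was the root-biased asparaginase gene. In shoots its 12 libraries ran from 16.1 to 28.2 FPKM and in roots from 30.4 to 78.7 FPKM, without overlap. Its root libraries had 44.7, 58.7 and 35.6 FPKM in WT NS, 61.4, 48.9 and 30.4 FPKM in *Ljasn1-2* NS, 66.1, 69.1 and 46.9 FPKM in WT S, and 75.9, 78.7 and 42.4 FPKM in *Ljasn1-2* S. Mean root levels were 2.08-fold to 2.65-fold those of the matching shoots. The difference in log2(FPKM + 1) was 1.25 under S conditions (SE 0.15, limma adjusted p = 4.27e-06) and 1.09 under NS conditions (SE 0.17, limma adjusted p = 7.87e-05).

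*LjNSE3* had the opposite bias under S conditions. In roots S it had 0.928, 0.767 and 0.488 FPKM in WT and 0.683, 0.809 and 0.565 FPKM in *Ljasn1-2*, all below the lowest shoot S library (2.63 FPKM). The root mean was 7.005-fold lower than the shoot mean in WT and 4.91-fold lower in *Ljasn1-2*, and the difference in log2(FPKM + 1) was -1.59 (SE 0.13, limma adjusted p = 5.60e-08), or -2.57 on recovered reads with voom weights. Under NS conditions the difference over both genotypes was -0.02 (95% interval -0.45 to 0.41, limma adjusted p = 0.944), and in *Ljasn1-2* libraries alone -0.53 (limma adjusted p = 0.0295). The joint value averages over opposite orders. WT roots NS, with 1.18, 2.20 and 0.756 FPKM, lay above WT shoots NS (0.498 to 0.730 FPKM), and *Ljasn1-2* roots NS, with 1.26, 0.609 and 0.524 FPKM, lay below *Ljasn1-2* shoots NS (1.37 to 1.82 FPKM). The test of this difference between the genotypes gave -1.02 (SE 0.29) and did not pass (limma adjusted p = 0.405).

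Under S conditions 2 of 4 asparaginase genes, LotjaGi4g1v0257000 and *LjNSE3*, thus passed the test between roots and shoots, against 67.4% of all genes tested, in opposite directions. Under NS conditions 3 of 4 passed, against 66.0% of all genes. LotjaGi4g1v0257000 was higher in roots, and LotjaGi5g1v0031100 (-0.40, SE 0.13, limma adjusted p = 0.0125) and LotjaGi3g1v0099500 (-0.34, SE 0.08, limma adjusted p = 0.0025) were lower. LotjaGi5g1v0031100 had 168, 205 and 180 FPKM in WT shoots NS and 204, 232 and 179 FPKM in *Ljasn1-2* shoots NS. The root libraries overlapped with these in WT and lay below them in *Ljasn1-2* (119 to 137 FPKM), and in WT libraries alone the difference of LotjaGi5g1v0031100 was -0.15 (limma adjusted p = 0.520). LotjaGi3g1v0099500 had 3.95, 4.16 and 3.65 FPKM in WT shoots NS against 2.51, 2.45 and 2.95 FPKM in WT roots NS, without overlap. In *Ljasn1-2* its 4.38, 3.50 and 3.93 FPKM in shoots NS overlapped with 2.78, 3.09 and 3.63 FPKM in roots NS, and the difference in mutant libraries alone was -0.25 (limma adjusted p = 0.170).

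The calls between tissues that were small in size depend on how libraries are scaled. With library totals the median of all genes moved by 0.27 towards roots under NS and by 0.26 under S conditions, and the share of called genes that were higher in roots went from 51.8% to 69.1% under NS and from 52.2% to 67.5% under S conditions. LotjaGi5g1v0031100 then differed by -0.08 (limma adjusted p = 0.562) and LotjaGi3g1v0099500 by -0.09 (limma adjusted p = 0.413) between roots NS and shoots NS, so neither call held. With quantile normalization LotjaGi5g1v0031100 did not pass either (-0.05, limma adjusted p = 0.779), whereas LotjaGi3g1v0099500 did. Relative to the median of all genes, LotjaGi5g1v0031100 was at -0.44 in the deposited scaling and at -0.39 with library totals, and LotjaGi3g1v0099500 at -0.38 and at -0.40. Under S conditions LotjaGi5g1v0031100, with 0.20 in the deposited scaling (limma adjusted p = 0.0878), reached 0.51 with library totals (limma adjusted p = 1.40e-05) and 0.51 with quantile normalization (limma adjusted p = 2.47e-04), and it passed without replicate 3 of *Ljasn1-2* roots S (0.24, limma adjusted p = 0.0390). Relative to the median of all genes it was at 0.14 under S conditions in the deposited scaling, at 0.19 with library totals and at 0.41 with quantile normalization. The calls of LotjaGi4g1v0257000 in both conditions and of *LjNSE3* under S conditions held in either scaling and with quantile normalization.

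**Figure D4:**
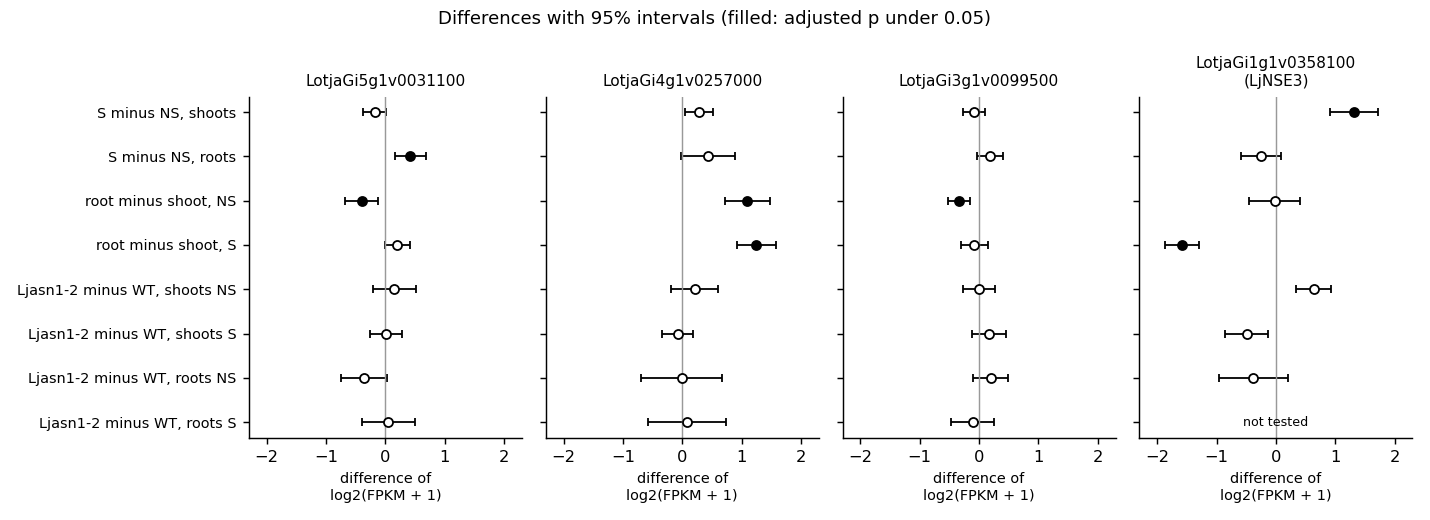
Differences in log2(FPKM + 1) with 95% intervals for each asparaginase gene (panels) in 8 comparisons, with filled points for an adjusted p under 0.05 in limma. The filled points are those of the growth condition and of the tissues, the largest being *LjNSE3* (1.32 for S minus NS in shoots and -1.59 for root minus shoot under S), and no point of the *Ljasn1-2* minus WT comparisons is filled.

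The third question was whether loss of *LjASN1* altered the expression of the asparaginase genes. None of them passed the test between *Ljasn1-2* and WT in any of the 4 tissues and conditions. Of all genes, 0.106% passed in shoots S, 0.433% in shoots NS, 0.0308% in roots S and 0.0433% in roots NS. These calls are those of limma on FPKM. The study, with DESeq2 and the same cut-off of 0.05, reported more genes in each of these 4 comparisons. Among the asparaginase genes only *LjNSE3* had an unadjusted p under 0.05, in shoots under both conditions. Of all genes tested, 1066 of 16010 had one in shoots S and 815 of 16159 in shoots NS. Whether libraries of the genotypes overlapped is described below for each asparaginase gene, but was not counted over all genes. When replicate number was added as a block, in comparisons where same-numbered libraries deviated together, the count of all genes called went from 70 to 278 in shoots NS and, in roots, from 5 to 264 under S and from 7 to 723 under NS conditions.

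In shoots NS the 3 mutant libraries of *LjNSE3* lay above the 3 WT libraries, 2.41-fold in the mean (1.55 ± 0.236 against 0.644 ± 0.126 FPKM, SD, n = 3). The difference in log2(FPKM + 1) was 0.63 (SE 0.13, 95% interval 0.34 to 0.93, limma adjusted p = 0.150). In shoots S the order was the reverse, with 3.37 ± 0.974 FPKM in the mutant and 5.10 ± 0.840 FPKM in WT, and the libraries overlapped (difference -0.49, SE 0.17, 95% interval -0.86 to -0.13, limma adjusted p = 0.561). The interaction, that is, the genotype difference under NS minus that under S conditions, was 1.13 (SE 0.22, 95% interval 0.65 to 1.61, limma adjusted p = 0.0844), and 0.216% of all genes passed this test. *LjNSE3* did so with a pseudocount of 0.1 (1.76, limma adjusted p = 0.0478) and without replicate 3 of *Ljasn1-2* shoots S (1.30, limma adjusted p = 0.0258). On reads recovered from the table, with voom weights, the interaction was 1.93 (limma adjusted p = 0.167). In roots S *LjNSE3* was below the level required for testing, and in roots NS its libraries overlapped (difference -0.38, limma adjusted p = 1.00).

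In roots NS the libraries of LotjaGi5g1v0031100 did not overlap, with 119 to 137 FPKM in the mutant and 149 to 186 FPKM in WT. The difference of -0.36 (SE 0.16, 95% interval -0.74 to 0.03) did not pass (limma adjusted p = 1.00), and a limma fit blocked on replicate number gave an adjusted p of 0.0460, where 723 genes, 4.47% of all, passed. That each mutant library lay below the WT library of its number follows from the lack of overlap and adds nothing to it. In shoots NS, shoots S and roots S the libraries of LotjaGi5g1v0031100 overlapped, with differences of 0.15, 0.01 and 0.05. Its interaction of genotype with tissue under NS conditions was -0.51 (limma adjusted p = 0.854), where 0.290% of all genes passed. Under S conditions 0.0334% of all genes passed the interaction with tissue, and none of the asparaginase genes. For the interaction of genotype with growth condition in roots, limma called 0 of 17283 genes (0%) and 752 genes had an unadjusted p under 0.05, and with voom weights 1 gene passed.

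LotjaGi4g1v0257000 and LotjaGi3g1v0099500 overlapped between the genotypes in each tissue and condition. The intervals of their differences give the sizes that remain possible. For LotjaGi4g1v0257000 the difference in log2(FPKM + 1) was -0.08 in shoots S (95% interval -0.34 to 0.19) and 0.21 in shoots NS (-0.18 to 0.61), but in roots the intervals were wider, -0.58 to 0.75 under S and -0.69 to 0.67 under NS conditions. With the replicate number as a block, which fits the root libraries as pairs, they narrowed to -0.17 to 0.33 under S and to -0.34 to 0.32 under NS conditions, and in shoots NS the blocked interval was 0.04 to 0.39 (limma adjusted p = 0.240). For LotjaGi3g1v0099500 they ran from -0.12 to 0.45 in shoots S, -0.26 to 0.27 in shoots NS, -0.47 to 0.26 in roots S and -0.10 to 0.49 in roots NS.

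**Figure D5:**
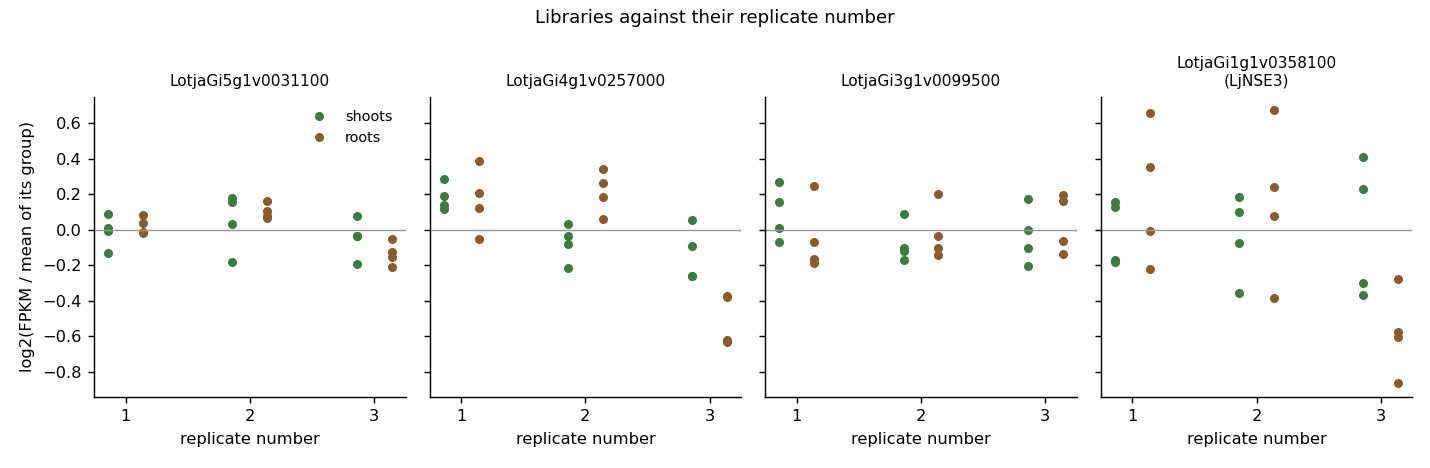
Log2 ratio of each library to the mean of its group (vertical axis) against its replicate number, for each asparaginase gene (green shoots, brown roots, 4 groups each). In roots the libraries numbered 3 are the lowest of their groups for LotjaGi5g1v0031100, LotjaGi4g1v0257000 and *LjNSE3*.

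The spread between replicates was well above counting error for the abundant genes and followed the replicate number in roots. For LotjaGi5g1v0031100 the coefficient of variation between replicates was 2.37% to 12.9%, where counting alone would give 0.691% to 0.872%. For LotjaGi4g1v0257000 it was 7.49% to 33.3% against 1.41% to 2.64%, for LotjaGi3g1v0099500 6.60% to 17.9% against 5.80% to 7.20%, and for *LjNSE3* 15.2% to 53.7% against 6.10% to 16.3%. Replicate 3 was the lowest library in 4 of 4 root groups for LotjaGi5g1v0031100, LotjaGi4g1v0257000 and *LjNSE3*, and in 0 of 4 for LotjaGi3g1v0099500. In shoots replicate 1 was the highest library of LotjaGi4g1v0257000 in 4 of 4 groups. What the libraries of 1 number shared is not given in the sources used here.

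The genes whose log2(FPKM + 1) followed each asparaginase gene most closely over the 24 libraries were listed among 18746 others, as a description, since the libraries share tissue and condition. LotjaGi4g1v0257000 had the closest ones, an isopentenyl-diphosphate isomerase (LotjaGi1g1v0485600, Pearson r 0.970), the undescribed gene LotjaGi3g1v0226500 (0.966) and an ADP-ribosylation factor (LotjaGi2g1v0244300, 0.961). *LjNSE3* was followed by a cytochrome P450 described as flavonoid 3'-monooxygenase (LotjaGi4g1v0216400, 0.895), by a gene described as 5'-adenylylsulfate reductase, an enzyme of sulphate assimilation (LotjaGi4g1v0013600, 0.871), and by an auxin-induced protein (LotjaGi3g1v0487000_LC, 0.859). For LotjaGi5g1v0031100 they were a ribosomal protein L4 (LotjaGi1g1v0520000, 0.847), a cyclin-dependent kinase C (LotjaGi6g1v0188800, 0.806) and a nicotinate phosphoribosyltransferase (LotjaGi4g1v0103900, 0.806). For LotjaGi3g1v0099500 no gene exceeded 0.744 (an aminopeptidase, LotjaGi4g1v0428200), followed by a DNA polymerase kappa (LotjaGi2g1v0459700, 0.740) and an AFG1-like ATPase (LotjaGi4g1v0292300, 0.734). No asparaginase gene was among the closest genes of another.

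The asparaginase genes were set beside 49 genes whose descriptions contain the names of enzymes of asparagine, aspartate and ammonium metabolism. The match was by words, and 6 of the 49 are described by another function or carry a domain of one (3 folylpolyglutamate synthases, and 1 gene each with a UDP-glycosyltransferase, a PPR repeat and a reverse transcriptase domain). Counts without these 6, a step chosen after seeing the data, are given beside the full ones. Between *Ljasn1-2* and WT 1 of the genes passed in each tissue and condition, and it was *LjASN1* itself.

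Between S and NS shoots 10 of 38 tested were higher and 4 lower (8 and 4 of 33 without the 6 genes), where 22.7% of all genes passed, with a median difference in log2(FPKM + 1) of 0.07 against 0.03 over all genes. The gene with the largest decrease was *LjASN1* (LotjaGi1g1v0118200, -2.43, limma adjusted p = 3.45e-08). Of 5 tested glyoxylate aminotransferase genes 4 rose, at most by 0.82 (LotjaGi6g1v0183300, described as serine--glyoxylate aminotransferase, limma adjusted p = 1.36e-05). In shoots S *LjNSE3* was thus higher and the synthetase gene *LjASN1* lower than in shoots NS. *LjNSE3* held only 2.51% of the summed asparaginase FPKM in WT shoots S, and the sum did not rise (208 FPKM in NS and 205 FPKM in S shoots of WT, 233 and 203 FPKM in those of *Ljasn1-2*). The weakly expressed asparagine synthetase 2 gene was lower in shoots S too (LotjaGi6g1v0130800, -1.38, limma adjusted p = 4.72e-06).

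Between S and NS roots 14 of 37 tested were higher and 9 lower (13 and 8 of 33 without the 6 genes), where 44.7% of all genes passed, with a median of 0.17 against 0.01 over all genes. A phosphoenolpyruvate carboxylase gene, which provides carbon for aspartate, rose by 2.76 (LotjaGi3g1v0158100, limma adjusted p = 1.51e-09). The genes whose descriptions contain asparagine synthetase went both ways, 3 higher and 1 lower of 4 tested. Of the 3, LotjaGi4g1v0087300 (0.78 to 1.82 FPKM) is described only as an asparagine synthetase domain-containing protein of chicken. The asparagine synthetase 2 gene rose by 1.23 (LotjaGi6g1v0130800, limma adjusted p = 0.0017), and *LjASN1* (LotjaGi1g1v0118200) differed by -2.66 (limma adjusted p = 6.69e-06), from 637 to 134 FPKM in the means of WT and from 78.9 to 9.02 FPKM in those of *Ljasn1-2*. In WT roots S LotjaGi6g1v0130800 had 2288 ± 1003 FPKM (SD, n = 3) and LotjaGi5g1v0031100, the most abundant asparaginase gene, 193 ± 8.15 FPKM. Between the tissues 15 genes were higher and 16 lower in roots of 39 tested under S conditions (15 and 12 of 34 without the 6 genes), where 67.4% of all genes passed. Under NS conditions 17 were higher and 15 lower of 38 tested (17 and 11 of 34), where 66.0% of all genes passed.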

How the data were processed

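The authors deposited 1 table of FPKM values for 24 libraries, recorded here as other, because values of 1 or more had lost their decimal point. Gene lengths in bases and descriptions came from the same deposited table. The submitters' processing notes name fastp, featureCounts 1.5.0-p3 and DESeq2 1.20.0, and the aligner is not given in the sources used here. The intact values below 1 show the FPKM of a single read, so 384363 values (53.0% of the table) were restored as whole numbers of reads, with the power of 10 taken from replicates and from the order of rows. On simulated data 0 of 384203 values were restored wrongly. The FPKM follow size factors times the geometric mean of library totals to within 0.008%. limma 3.58.1 (R 4.3.3, intensity trend) was run on log2(FPKM + 1) with genotype as covariate in comparisons of condition and tissue. In simulated data it recovered 98 of 100 genes changed by 1 on the log2 scale between genotypes in shoots NS, among 16113 genes. That result does not cover roots. Nor does it speak for *LjNSE3*, which in shoots NS differed by 2.41-fold, or 0.63 in log2(FPKM + 1), and did not pass. There *LjASN1* differed between genotypes by -3.85 under S (limma adjusted p = 0.0485) and by -3.08 under NS conditions (limma adjusted p = 0.0378). Libraries of the same number deviated together (every r over 0.1, over all genes) in the genotype comparisons of shoots NS (mean r 0.51), roots S (0.65) and roots NS (0.69) and in roots as a whole (0.63). Named genes are all asparaginase genes, *LjASN1*, the 3 closest patterns of each, and examples of the pathway lists taken from those with the largest difference that passed. The genes and lists were chosen with earlier results of these data known. Python 3.11.15, numpy 2.4.6, pandas 2.3.3 and matplotlib 3.10.9 were used. Alternatives were the replicate block, a pseudocount of 0.1, no filter, voom, library totals, quantiles, 1 fit of all libraries, each genotype alone and each library left out. Sequences were not used here.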

Additional observations from a re-analysis of the deposited data

Results flagged for a closer look

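Of the 4 asparaginase genes 2 answered to the growth condition differently in shoots and roots, where 37.6% of all genes tested passed the same test. For LotjaGi5g1v0031100 the difference S minus NS in log2(FPKM + 1) was 0.42 in roots and -0.18 in shoots, so that roots exceeded shoots by 0.60 (limma adjusted p = 0.0020). The means were above NS in S roots of both genotypes and below NS in S shoots of both. For *LjNSE3* (LotjaGi1g1v0358100) the difference was -0.25 in roots and 1.32 in shoots, and roots minus shoots gave -1.57 (limma adjusted p = 3.30e-05).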

How the results depend on the processing

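Of 99 alternatives that left out no library, 90 kept the number of asparaginase genes called in a comparison within 1.5 times, as did 140 of 144 that left out 1 library. With only 4 genes this measure is coarse. A count of 0 that stayed at 0 was taken as kept, and so was a change from 2 to 3 between tissues under S conditions. With a replicate block 1 gene instead of 0 was called between genotypes in roots NS, 2 instead of 1 between S and NS in shoots (where 33.8% of all genes passed with the block) and in roots (64.4%), and 1 instead of 0 in the interaction of genotype and condition in shoots (*LjNSE3*, LotjaGi1g1v0358100, adjusted p = 0.0411). A pseudocount of 0.1 also gave 1 there. Scaling by library totals gave 2 between S and NS shoots and 1 instead of 3 between tissues under NS. For S against NS in roots, 1 fit of all 24 libraries gave 2 and WT libraries alone 0. Leaving out 1 library gave 1 to 2 in S against NS in shoots and in roots, and 0 to 1 in the interaction in shoots. Same-numbered libraries correlated on average (mean r 0.19 in shoots S, 0.36 across conditions in shoots, 0.18 and 0.28 across tissues under S and NS), but not in every pair (lowest r -0.01, -0.03, -0.38 and -0.44). The mean r of other pairs (-0.10, -0.16, -0.09 and -0.15) adds nothing, since deviations from a mean of 3 libraries sum to 0. In shoots the block gave LotjaGi4g1v0257000 a limma adjusted p of 0.0171 between S and NS shoots. Beside the changes named, the block changed no other call of an asparaginase gene in the comparisons run.

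Differences close to 0 changed sign under some settings. With quantile normalization LotjaGi5g1v0031100 was at -0.0014 between genotypes in roots S and at -0.0056 in the interaction of genotype and tissue under S (-0.0264 with library totals). LotjaGi3g1v0099500 between tissues under S was at 0.16 with library totals and at 0.0565 in WT alone, and *LjNSE3* between tissues under NS at 0.13 with library totals. With 1 library left out, LotjaGi5g1v0031100 ranged from -0.0778 to 0.0557 (genotype, shoots S), from -0.0076 to 0.15 (genotype, roots S) and from -0.0177 to 0.14 (genotype by tissue, S). LotjaGi4g1v0257000 ranged from -0.15 to 0.0247 (genotype, shoots S), from -0.0923 to 0.36 (roots S), from -0.23 to 0.27 (roots NS), from -0.37 to 0.19 (genotype by condition, roots), from -0.0167 to 0.44 (genotype by tissue, S) and from -0.44 to 0.0529 (NS). LotjaGi3g1v0099500 ranged from -0.0616 to 0.0668 (genotype, shoots NS) and *LjNSE3* from -0.18 to 0.0866 (tissue, NS). The cause was not tested in any of these.

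The count of all genes called moved by over 1.5 times in several comparisons. Between genotypes it was 17 in shoots S (62 with the block, 7 with no filter), 70 in shoots NS (278, and 149 in 1 fit of all libraries), 5 in roots S (264, 2 with no filter, 2 with voom, 97 in 1 fit) and 7 in roots NS (723, and 113 in 1 fit). Between S and NS it was 3782 in shoots (996 in WT alone, 1918 in *Ljasn1-2* alone) and 7728 in roots (3993 and 4604), where fewer libraries entered. The interaction of genotype and condition gave 36 in shoots (95 with the block, 21 with voom) and 0 in roots (38, 1 with voom, 14 in 1 fit), that of genotype and tissue 6 under S (19, 0 with a pseudocount of 0.1 or voom, 15 in 1 fit) and 52 under NS (81, 25 with voom). Leaving out 1 library gave 7 to 14, 15 to 67, 0 to 3 and 0 to 9 for the genotypes in that order, and 17 to 38, 0 to 1, 1 to 15 and 33 to 57 for the interactions.

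Depth limits *LjNSE3* most, with as few as 28 reads in a library. Pools of 10 plants average over plants, and 3 libraries per group leave wide intervals in roots.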
